A study of Homo sapiens with 7 samples.

Results

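The end of the short arm of chromosome 5 carried more peaks per Mb than the rest of the chromosome in all 7 libraries of a chromatin immunoprecipitation series on HT1080 cells, a human fibrosarcoma line. The block comprises every peak of chromosome 5 whose midpoint lies below position 20000000 (hg19). It held 8858 of the 148917 peaks in the 7 lists, and the rest of chromosome 5 held 5483. The block was chosen by the number of peaks per Mb in these same lists, so its peak density is a description and was not tested. The peaks of different libraries often cover the same DNA, and peaks of 1 library are not replicates of a condition.

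Cells were transfected with RNA interference duplexes against VRK1 (siVRK1) or with a non-targeting duplex (siControl). Fixed and sonicated nuclei were precipitated with anti-H2ApT120 (pT120), anti-H2AubK119 (ubK119) or anti-VRK1. The libraries were siVRK1 pT120, siControl pT120, siVRK1 ubK119, siControl ubK119 and siControl VRK1, with siVRK1 input DNA and siControl input DNA, which saw no antibody. Each stood for 1 condition with no replicate, so every difference below is one between libraries and has no replicate check. VRK1 was precipitated in siControl cells only, and the lists hold no measure of how far VRK1 was depleted.

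VRK1 is a nuclear serine/threonine kinase that phosphorylates histone H2A at the threonine read by the pT120 antibody. The neighbouring lysine is ubiquitylated by Polycomb repressive complex 1, and ubK119 is therefore a mark of Polycomb-repressed chromatin. The tip of this arm carries Iroquois homeobox genes (IRX4, IRX2 and IRX1), a developmental family known as Polycomb targets in many cell types. No annotation in the build of the lists was at hand, so peaks are given by position and none is assigned to a gene.

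Library totals ran from 20687408 reads (siControl pT120) to 40442635 reads (siControl ubK119), and the lowest accepted peak height ran from 12 to 18 reads. Peak numbers of different lists are therefore not directly comparable, whereas a ratio of block to rest within a list uses the same cut on both sides. Intervals in brackets are at 95% and cover counting error alone, because there was 1 library per condition. They treat reads as independent. Reads made with 20 cycles of PCR are not independent molecules, so the intervals may be too narrow even for counting error. Levels are given as RPM, the reads of a region scaled to the library total, and 3 reads corresponded to between 0.0742 and 0.145 RPM.

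The block made up 0.647% of the 1 Mb windows of the genome and took between 4.04% and 8.86% of the peaks of a library. The siVRK1 pT120 list placed 4.04% (3.86 to 4.23) of its 42461 peaks here, which was 1716 peaks. The siControl pT120 list placed 4.29% (3.82 to 4.81) of its 6665 peaks here, which was 286 peaks. Both pT120 shares were lower than those of the input lists, although the interval of siControl pT120 overlapped that of the siControl input, and the ubK119 and VRK1 shares were higher. The block held 1066 of 13818 siVRK1 ubK119 peaks, or 7.71% (7.28 to 8.17). The share was 8.86% (8.54 to 9.20) for siControl ubK119, with 2566 of 28955 peaks. For siControl VRK1 it was 6.41% (6.05 to 6.78), from 1123 of 17531 peaks. As the level without an antibody, 5.62% (5.31 to 5.93) of the siVRK1 input peaks and 4.97% (4.65 to 5.29) of the siControl input peaks lay in the block, which came to 1208 and 893 peaks.

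Set against the rest of chromosome 5, the 2 ubK119 lists had the highest contrast and the siVRK1 pT120 list the lowest. The siVRK1 ubK119 list had 53.3 peaks per Mb in the block and 2.17 per Mb on the rest, a ratio of 24.6. In the siControl ubK119 list 128 peaks per Mb stood against 5.53, a ratio of 23.2. The VRK1 list had 56.2 against 3.09 peaks per Mb, a ratio of 18.2. The pT120 lists were further apart from each other. The siVRK1 pT120 list had 85.8 peaks per Mb in the block, 14.0 on the rest and a ratio of 6.11. The siControl pT120 list had 14.3 and 0.988 peaks per Mb, a ratio of 14.5. Both inputs showed an excess without any antibody. The siVRK1 input had 60.4 peaks per Mb in the block and 4.22 on the rest, a ratio of 14.3. The siControl input had 44.7 and 4.01, a ratio of 11.1.

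Few siVRK1 pT120 peaks were high. At a common height of 0.600 RPM, which is 22 reads in this library, the siVRK1 pT120 list kept 3 block peaks and 30 on the rest, and its density ratio turned to 0.805. Of those 30 peaks all but 5 lay from 45 to 50 Mb, the windows beside the centromere, and without these the ratio was 4.68, from 3 and 5 peaks. The other 6 libraries kept an excess in the block at this height. Against all other chromosomes the density ratios ran from 6.40 for siVRK1 pT120 to 14.5 for siControl ubK119, and for the 6 lists other than siVRK1 pT120 they were smaller than against the rest of chromosome 5.

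Within the block the peaks were not spread evenly. In 5 lists the fullest window was the one from 1 to 2 Mb. It held 363 siVRK1 ubK119 peaks, more than any other 1 Mb window of the genome in that list. It held 477 siControl ubK119 peaks, rank 4 of the genome, and 209 VRK1 peaks, rank 5. The same window held 83 siControl pT120 peaks (rank 8) and 165 siVRK1 input peaks (rank 7). It was not the fullest window of the siControl input, where it held 55 peaks and the window from 14 to 15 Mb held 148. In the siVRK1 pT120 list the window from 1 to 2 Mb was among the emptier ones, with 39 peaks against 152 in the window from 13 to 14 Mb.

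The ubK119 peaks leaned to the tip of the chromosome and the siVRK1 pT120 peaks away from it. From 0 to 5 Mb the siVRK1 ubK119 list had 154 peaks per Mb, against 22.8 from 5 to 18 Mb. For siControl ubK119 these densities were 259 and 97.4 per Mb, and for VRK1 94.8 and 49.8. The siVRK1 pT120 list ran the other way, at 53.8 per Mb from 0 to 5 Mb and 108 from 5 to 18 Mb. The siControl pT120 list, with 24.2 and 12.7 per Mb, leaned to the tip. The siVRK1 input was nearly level, at 78.6 and 62.5 per Mb, and the siControl input leaned away from the tip, at 32.0 and 55.9.

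**Figure D1:**
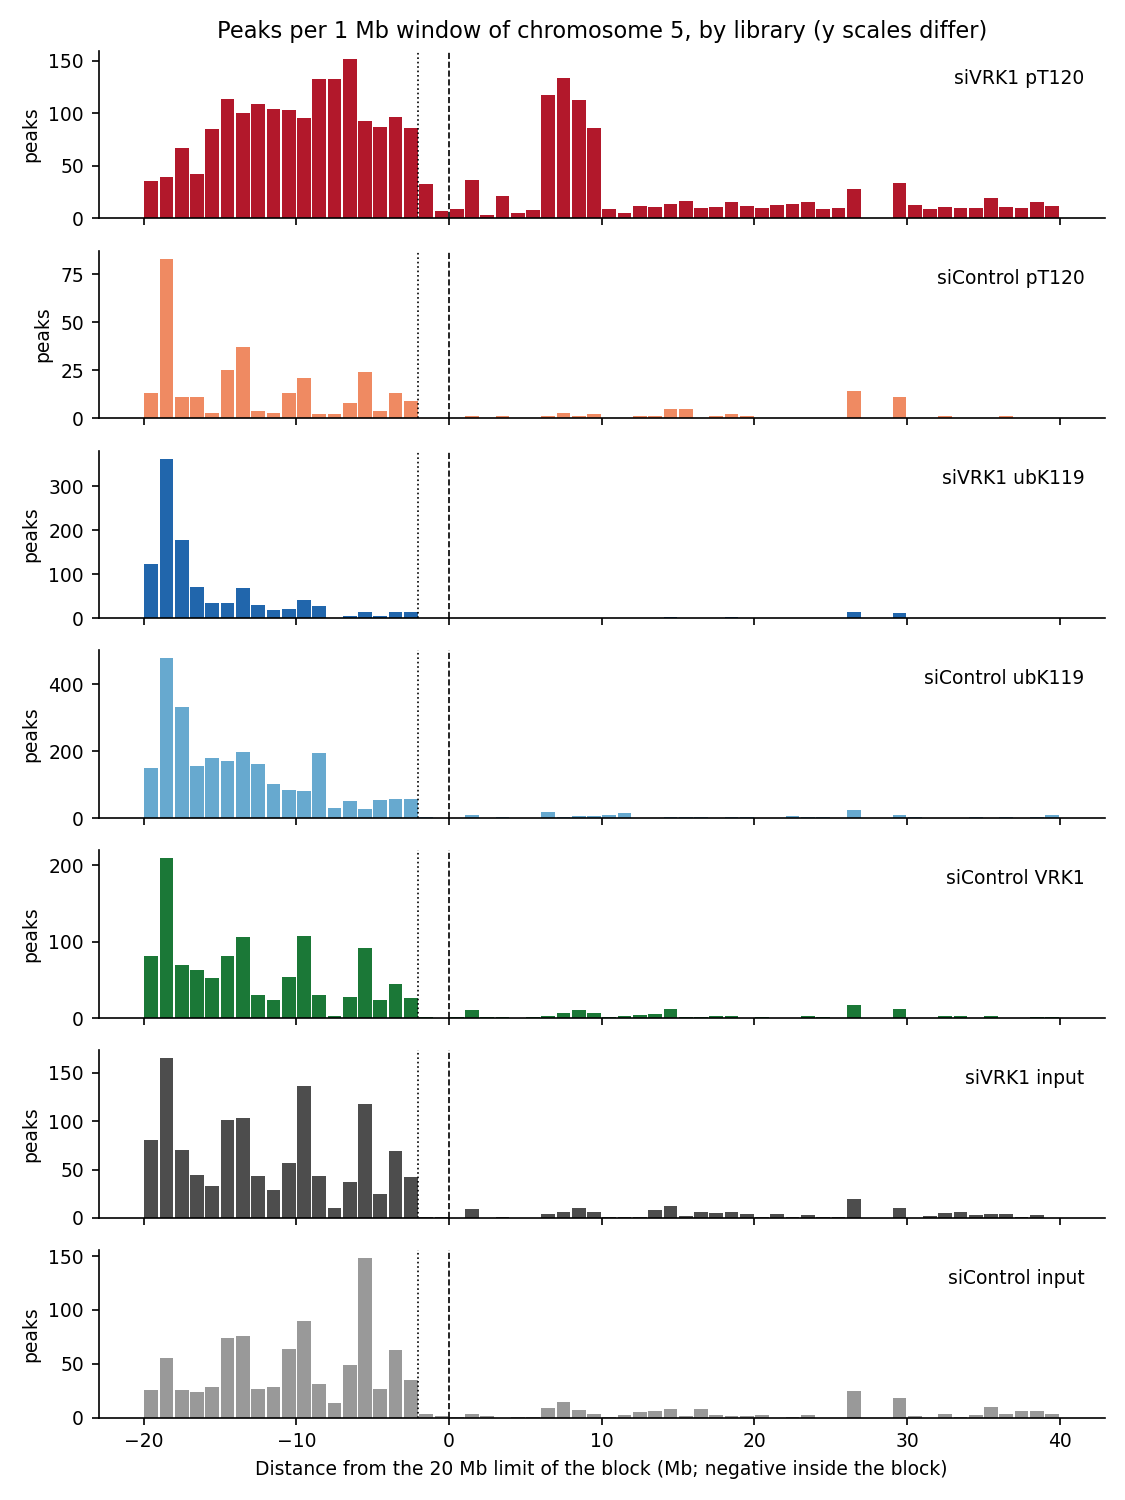
Number of peaks per 1 Mb window of chromosome 5 (y axis, a separate scale for each library) against the distance of the window's centre from the 20 Mb limit (x axis, Mb, negative inside the block), for the 7 libraries, shown to 40 Mb beyond the limit. The dashed line marks the limit and the dotted line 18 Mb, where every library drops; siVRK1 pT120 alone has a second group of full windows beyond the limit, from 26 to 30 Mb of the chromosome.

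The dense stretch ended at 18 Mb, short of the 20 Mb limit that defines the block. The window from 17 to 18 Mb held 86 siVRK1 pT120, 9 siControl pT120, 15 siVRK1 ubK119, 56 siControl ubK119 and 26 VRK1 peaks, and 42 siVRK1 input and 35 siControl input peaks. In the next window, from 18 to 19 Mb, there were 33 siVRK1 pT120, 0 siControl pT120, 1 siVRK1 ubK119, 4 siControl ubK119 and 1 VRK1 peaks, and 1 siVRK1 input and 4 siControl input peaks. From 19 to 20 Mb there were 7 siVRK1 pT120 peaks, 1 siVRK1 input peak and 2 siControl input peaks, and none in the other lists. The drop was thus shared by antibody and input libraries. On the far side of the limit, from 20 to 21 Mb, the siVRK1 pT120 list had 9 peaks, the VRK1 list 1, the siControl input 1 and the other lists 0.

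Most of the peaks nearest to the limit were close to the lowest accepted height. Just inside it, the siVRK1 pT120 peak at chr5:19830516-19830762 had a height of 14 reads, and just outside, the one at chr5:20049772-20050004 had 12. The nearest VRK1 peaks, chr5:18169901-18170101 inside and chr5:20633442-20633642 outside, both had 14. In siVRK1 ubK119 the nearest inside peak, chr5:18119385-18119585, had 18 reads, and the nearest outside one lay at chr5:25627493-25627806 with 21. For siControl ubK119 these were chr5:18916593-18916815 with 16 reads and chr5:21480315-21480565 with 24. The siControl pT120 list had its last inside peak at chr5:17526812-17527091, with 29 reads, and its first outside peak at chr5:21487276-21487476, with 12. That inside peak and the first outside peaks of siControl ubK119 and siControl pT120 were called in the inputs as well. The nearest input peaks on either side had 14 reads (siVRK1 input) or 12 (siControl input).

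A second dense stretch was found in the siVRK1 pT120 list, from 26 to 30 Mb. It held 450 peaks, between 86 and 134 per window, near the density of the block from 5 to 18 Mb. In the other lists the same 4 Mb held 7 (siControl pT120), 2 (siVRK1 ubK119), 31 (siControl ubK119), 26 (VRK1), 26 (siVRK1 input) and 35 (siControl input) peaks. At the regions called there, the input level was near that of the rest of the chromosome: the median over the 4 windows was 1.11 times (siVRK1 input) and 1.16 times (siControl input) the median of the windows above 30 Mb.

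Across the 18 windows below 18 Mb, the lists differed in which windows they filled. Windows share DNA, mappability and base composition among all libraries, so the following Spearman coefficients over 18 windows are descriptions. The number of VRK1 peaks went with that of siVRK1 input peaks (0.951) more closely than with that of siControl input peaks (0.527). The siControl pT120 numbers likewise went with siVRK1 input at 0.905 and with siControl input at 0.653. The 2 ubK119 lists went together at 0.819, and the 2 inputs at 0.611. The siControl ubK119 numbers showed little relation to those of the siControl input (-0.069), and the siVRK1 pT120 numbers ran against those of siVRK1 ubK119 (-0.571). The window from 12 to 13 Mb was the emptiest of the 18 for siVRK1 ubK119 (1 peak), VRK1 (3), siVRK1 input (10) and siControl input (14), while siVRK1 pT120 had 133 peaks there.

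Peaks of the block were short, and longest for ubK119. The median length was 281 bp for siVRK1 ubK119 in the block and 228 bp on the rest of chromosome 5, and 253 and 214 bp for siControl ubK119. For VRK1 it was 238 and 225 bp, for siVRK1 input 245 and 212 bp, and for siControl input 226 and 207 bp. The pT120 peaks had medians of 224 and 207 bp (siVRK1) and of 216 and 215 bp (siControl). Heights differed little: median heights lay within 1 read of each other in the block and on the rest in each library, from 12 to 20 reads in the block. By covered sequence the contrast of siVRK1 ubK119 widened to 37.6, with 21502 bp per Mb in the block and 572 bp per Mb on the rest.

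The next question was whether reads, and not only called peaks, were denser in the block. Regions of the siVRK1 pT120 list were used, since they lie along all of chromosome 5, leaving out those above 100 reads in either input. Whether input reads entered the calling of these peaks is unstated. In the siVRK1 input the median level over the 18 windows below 18 Mb was 0.581 RPM per kb of region, with a range from 0.457 to 1.24. Over the 140 windows above 30 Mb the median was 0.368 RPM per kb. In the siControl input these medians were 0.672 (range 0.441 to 1.20) and 0.431 RPM per kb. Input DNA without antibody thus gave 1.58 times (siVRK1) and 1.56 times (siControl) as many reads per kb below 18 Mb as above 30 Mb, and all 18 windows lay above the median of the distant windows in both inputs. From 18 to 19 Mb, with 33 regions, the inputs had 0.442 (siVRK1) and 0.434 (siControl) RPM per kb, lower than the median below 18 Mb and slightly above the distant medians. Pooled over all regions of this list, block over rest was smaller, at 1.34 (1.302 to 1.38) in the siVRK1 input and 1.27 (1.23 to 1.31) in the siControl input. With regions of any read number the pooled ratios were 1.03 (0.998 to 1.06) and 0.993 (0.964 to 1.02), with 1 inside each interval. Input reads reflect DNA copies, sonication and mapping together, and these cannot be told apart here.

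Antibody libraries showed a step of about the same size. The ratio of medians, below 18 Mb over above 30 Mb, was 1.65 for siControl pT120, 1.72 for siControl ubK119 and 1.59 for VRK1. It was 2.01 for siVRK1 ubK119, where 17 of 18 windows lay above the distant median. The window from 1 to 2 Mb stood out in each of the 6 libraries, from 1.20 RPM per kb in the siControl input to 1.97 in both ubK119 libraries. The siVRK1 ubK119 step was the largest of the 6, and the steps of the other antibody libraries lay between 1.59 and 1.72, close to those of the inputs.

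**Figure D2:**
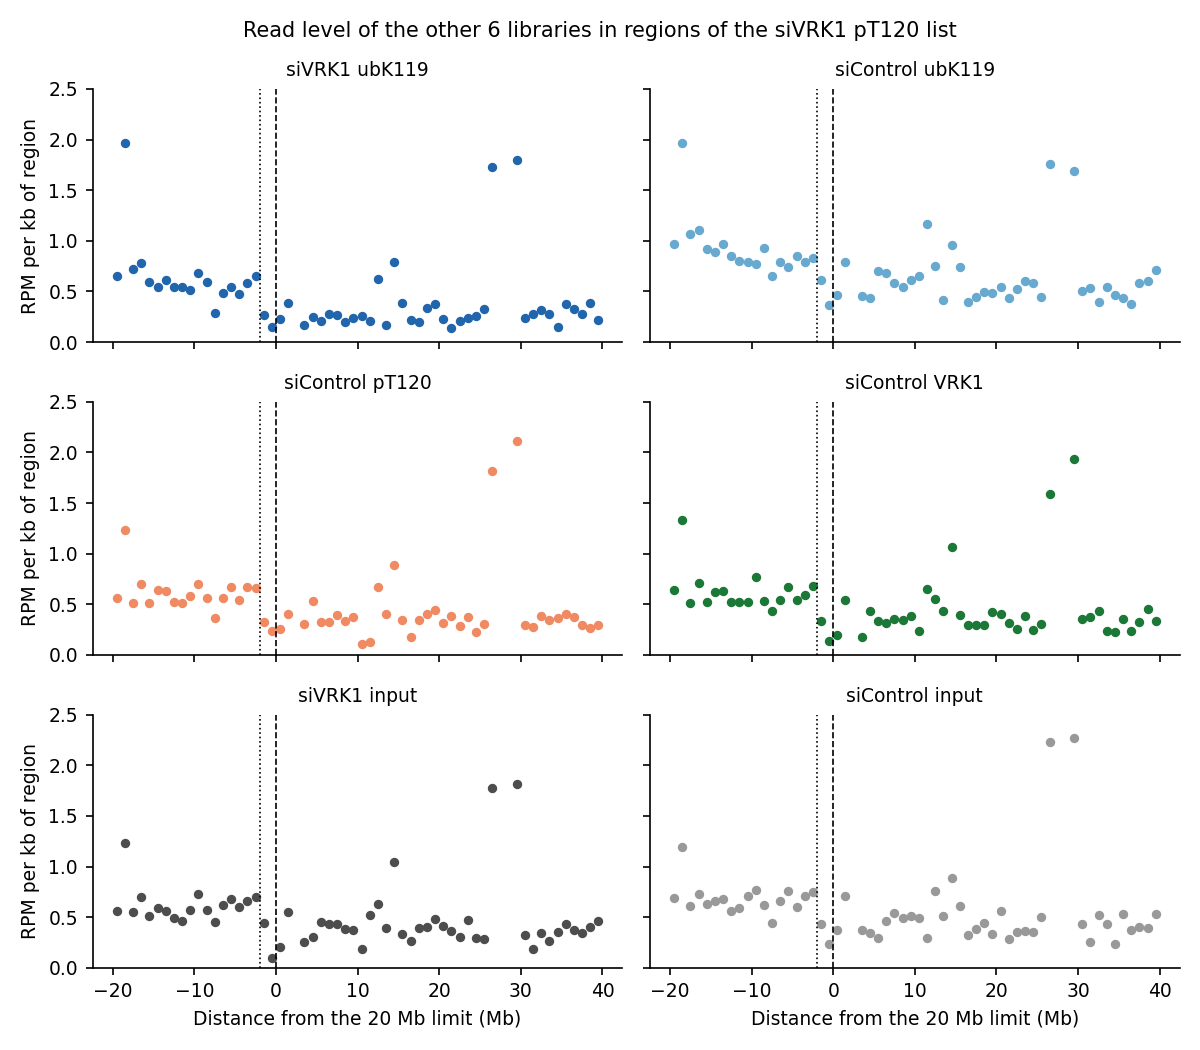
Read level in RPM per kb of region (y axis) in regions of the siVRK1 pT120 list, 1 point per 1 Mb window, against distance from the 20 Mb limit (x axis, Mb, negative inside the block; windows to 40 Mb beyond it), for the other 6 libraries. Levels stand higher left of the dotted line at 18 Mb in all 6 panels, inputs included, and the high points near 27 and 30 Mb beyond the limit are windows beside the centromere.

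Regions called with the VRK1 antibody gave a less simple picture, because a few regions beside the centromere hold very many reads. Over all 1123 block regions and 498 rest regions, the siVRK1 input had 1.28 RPM per kb in the block and 1.4995 on the rest, a ratio of 0.854 (0.828 to 0.880). The siControl input had 1.05 and 1.44 RPM per kb, a ratio of 0.732 (0.707 to 0.759). Without the windows from 45 to 50 Mb the direction turned, to 1.17 (1.13 to 1.21) in the siVRK1 input and 1.17 (1.12 to 1.22) in the siControl input. With a limit of 100 reads in each input as well, which left out 3 block regions and 9 rest regions in all, the ratios were 1.26 (1.22 to 1.31) and 1.24 (1.19 to 1.296). The comparisons below therefore leave out regions above 100 reads in either input, and give the rest with and without the windows from 45 to 50 Mb.

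Antibody reads were then divided by input reads of the same siRNA, at regions called in another library (VRK1 regions for the histone marks, siControl ubK119 regions for VRK1). The ubK119 and VRK1 libraries stood higher over input in the block than on the rest of chromosome 5. The siVRK1 ubK119 library had 1.47 times (1.44 to 1.51) the input in the block and 1.13 times (1.09 to 1.18) on the rest. The siControl ubK119 library had 1.01 times (0.983 to 1.04) and 0.752 times (0.718 to 0.788). The VRK1 library had 1.26 times (1.24 to 1.28) and 0.986 times (0.947 to 1.03). The block-over-rest ratios of these values were 1.299 (1.24 to 1.36), 1.34 (1.27 to 1.42) and 1.28 (1.22 to 1.34). Without the windows from 45 to 50 Mb they were 1.27 (1.21 to 1.33), 1.32 (1.25 to 1.40) and 1.21 (1.15 to 1.27), so the contrast was there with and without those windows. Its size depended on the input. With the input of the other siRNA the siControl ubK119 and VRK1 contrasts were smaller, lowest for VRK1, and the siVRK1 ubK119 contrast was larger.

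For pT120 the contrast depended on the windows beside the centromere. The siVRK1 pT120 library had 0.402 times (0.390 to 0.415) the input in the block and 0.528 times (0.503 to 0.554) on the rest, but 0.403 times (0.380 to 0.427) on the rest without those windows. The siControl pT120 library had 1.14 times (1.11 to 1.17) in the block, 1.04 times (0.983 to 1.09) on the rest and 1.08 times (1.02 to 1.15) without them. The block-over-rest ratio without those windows was 0.997 (0.933 to 1.06) for siVRK1 pT120 and 1.05 (0.987 to 1.13) for siControl pT120, and both intervals include 1. Outside input peaks the siVRK1 pT120 ratio was 1.10, against 0.762 over all regions, and with the input of the other siRNA the siControl pT120 ratio was 0.993, against 1.10. In the other region lists, without those windows, siControl pT120 stood higher in the block: 1.13 (1.07 to 1.19) at siVRK1 pT120, 1.09 (1.01 to 1.17) at siVRK1 ubK119 and 1.198 (1.13 to 1.27) at siControl ubK119 regions. For siVRK1 pT120 they gave 0.766 (0.684 to 0.857) at siControl pT120, 0.942 (0.872 to 1.02) at siVRK1 ubK119 and 0.873 (0.834 to 0.914) at siControl ubK119 regions. Whether the intervals include 1 thus depended on the list for both pT120 libraries.

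At these regions most of the excess over the input of the same siRNA lay in the first 5 Mb. The 2 inputs differed there as well. At VRK1 regions siVRK1 over siControl input was 1.39 from 0 to 5 Mb and 1.08 from 5 to 18 Mb. At siControl ubK119 regions it was 1.31 and 1.02. The contrast between these stretches thus depends on the input used, and it was not tested with the input of the other siRNA. At VRK1 regions the siVRK1 input had 1.33 RPM per kb from 0 to 5 Mb and 1.20 from 5 to 18 Mb. The siControl input ran the other way, at 0.955 and 1.11. Before division by input, siControl pT120 had 1.30 and 1.10 RPM per kb, a step in the direction of the siVRK1 input. The ubK119 levels were 2.45 and 1.37 (siVRK1) and 1.33 and 0.827 (siControl). The siVRK1 ubK119 library stood at 1.84 times (1.79 to 1.90) the input from 0 to 5 Mb and at 1.14 times (1.10 to 1.17) from 5 to 18 Mb. The siControl ubK119 library stood at 1.39 times (1.34 to 1.45) and at 0.743 times (0.715 to 0.771). On the rest of the chromosome without the windows beside the centromere these libraries stood at 1.16 times (1.11 to 1.21) and 0.763 times (0.723 to 0.805), within the intervals of the stretch from 5 to 18 Mb. The VRK1 library had 1.45 times (1.41 to 1.49) and 1.04 times (1.01 to 1.07) the input in these stretches, and 1.04 times (0.997 to 1.09) on the rest without those windows. At regions of the siVRK1 pT120 list, by contrast, the stretch from 5 to 18 Mb stood above the rest without those windows. There siVRK1 ubK119 had 0.911 times (0.880 to 0.944) and 0.737 times (0.709 to 0.765) the input, siControl ubK119 1.26 times (1.23 to 1.304) and 1.18 times (1.14 to 1.21), and VRK1 0.889 times (0.859 to 0.921) and 0.796 times (0.769 to 0.825). For VRK1 the first 5 Mb did not stand apart in that list, with 1.05 (0.972 to 1.14) times the value from 5 to 18 Mb. At VRK1 regions the pT120 libraries differed from each other. There siVRK1 pT120 had 0.343 times (0.327 to 0.360) the input in the first 5 Mb and 0.455 times (0.437 to 0.474) from 5 to 18 Mb. The siControl pT120 library had 1.36 times (1.297 to 1.42) and 0.985 times (0.945 to 1.03). At regions of the siVRK1 pT120 list siControl pT120 showed no such contrast, with 0.893 times (0.821 to 0.971) and 0.891 times (0.857 to 0.927).

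**Figure D3:**
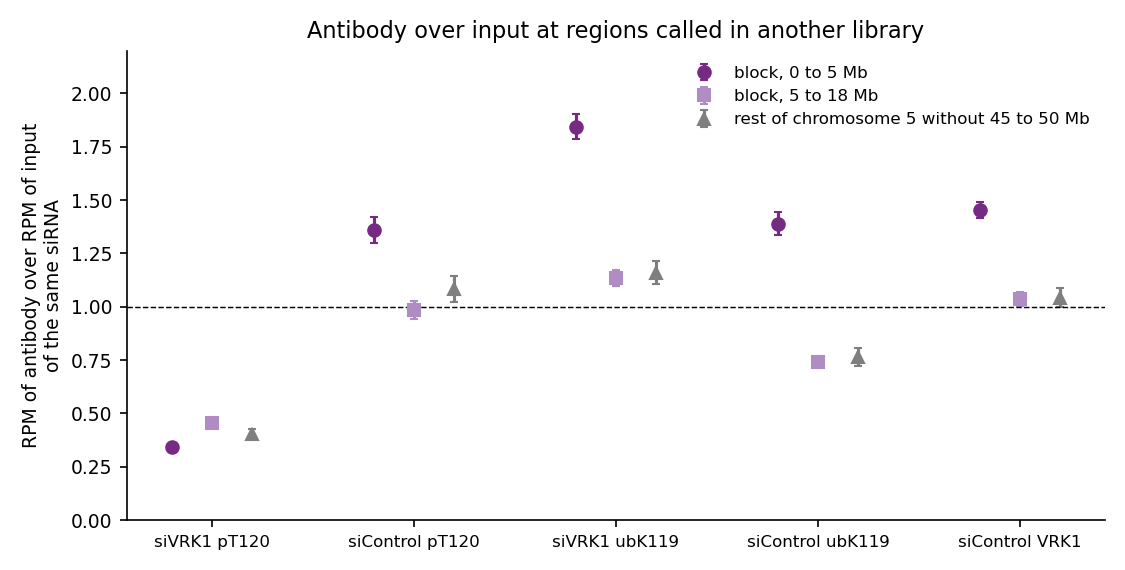
Ratio of antibody RPM to input RPM of the same siRNA (y axis, linear, from 0) for the 5 antibody libraries (x axis), at regions called in another library, for the block from 0 to 5 Mb, the block from 5 to 18 Mb and the rest of chromosome 5 without the windows from 45 to 50 Mb. Bars are 95% intervals of counting error. In 4 libraries the first 5 Mb stand above both other stretches, and in siVRK1 pT120 they stand below them. The inputs differ between stretches too: siVRK1 over siControl input at VRK1 regions is 1.39 from 0 to 5 Mb and 1.08 from 5 to 18 Mb.

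The comparison of siVRK1 with siControl asks how the marks in the block differed after RNA interference against the kinase. At the 1120 VRK1 regions of the block, pT120 had 158 RPM in siVRK1 and 370 RPM in siControl cells, a ratio of 0.426 (0.412 to 0.441). The ubK119 level was 578 RPM in siVRK1 and 328 RPM in siControl cells, a ratio of 1.76 (1.72 to 1.801). Input DNA itself had 393 and 325 RPM, a ratio of 1.21 (1.18 to 1.24). Lower pT120 and higher ubK119 reads thus stood beside a higher input in siVRK1 cells. Relative to the input ratio, pT120 was at 0.353 (0.338 to 0.369) and ubK119 at 1.46 (1.41 to 1.51).

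The direction of ubK119 turned with the regions in which it was read. At the 1716 block regions of the siVRK1 pT120 list, ubK119 had 254 RPM in siVRK1 and 377 RPM in siControl cells, a ratio of 0.672 (0.653 to 0.690), or 0.741 (0.712 to 0.773) relative to input. In those regions ubK119 was lower in siVRK1 along nearly the whole block: the ratio was below 1 in 17 of the 18 windows below 18 Mb, from 0.439 to 1.001 (median 0.664). Read at the 286 regions called for siControl pT120, ubK119 had a ratio of 1.95 (1.86 to 2.04), or 1.47 (1.37 to 1.58) relative to input. No direction of ubK119 holds for the block as a whole. For pT120 the ratio was 0.368 (0.356 to 0.380) at siVRK1 ubK119 regions and 0.757 (0.741 to 0.774) at siControl ubK119 regions, below 1 in both. It was not uniform at siControl ubK119 regions, with 0.635 (0.617 to 0.654) from 0 to 5 Mb and 0.957 (0.925 to 0.990) from 5 to 18 Mb. The values that follow are for VRK1 regions.

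These ratios did not differ detectably from those of the rest of chromosome 5 once the windows beside the centromere were left out. On the rest without the windows from 45 to 50 Mb, the ratio was 0.442 (0.415 to 0.472) for pT120, 1.802 (1.72 to 1.89) for ubK119 and 1.19 (1.13 to 1.25) for input. Block over rest came to 0.964 (0.896 to 1.04), 0.977 (0.927 to 1.03) and 1.02 (0.963 to 1.08), with 1 inside each interval. With the windows beside the centromere the rest had 0.556 for pT120, 1.64 for ubK119 and 1.09 for input, and block over rest then read 0.767 (0.719 to 0.817), 1.07 (1.02 to 1.12) and 1.11 (1.05 to 1.17). Within the block, the pT120 ratio was 0.352 (0.334 to 0.371) in the first 5 Mb and 0.499 (0.476 to 0.522) from 5 to 18 Mb. The ubK119 ratio was 1.84 (1.79 to 1.90) and 1.65 (1.59 to 1.71) there. The input ratio differed as well, with 1.39 (1.34 to 1.45) in the first 5 Mb and 1.08 (1.04 to 1.12) from 5 to 18 Mb. Relative to the input ratio the order of ubK119 turned, to 1.33 (1.26 to 1.39) in the first 5 Mb and 1.53 (1.45 to 1.61) from 5 to 18 Mb. The order of pT120 stayed, at 0.253 (0.237 to 0.270) and 0.462 (0.436 to 0.490).

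At VRK1 regions the directions were the same in each window of the block. In the 17 block windows with enough VRK1 regions, the pT120 ratio ran from 0.312 to 0.601 (median 0.473) and the ubK119 ratio from 1.34 to 2.21 (median 1.65). All 17 intervals lay below 1 for pT120 and above 1 for ubK119. The input ratio ran from 0.852 to 1.54 (median 1.13), with 9 of 17 intervals above 1. In 17 windows of the rest the medians were 0.433, 1.81 and 1.14.

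**Figure D4:**
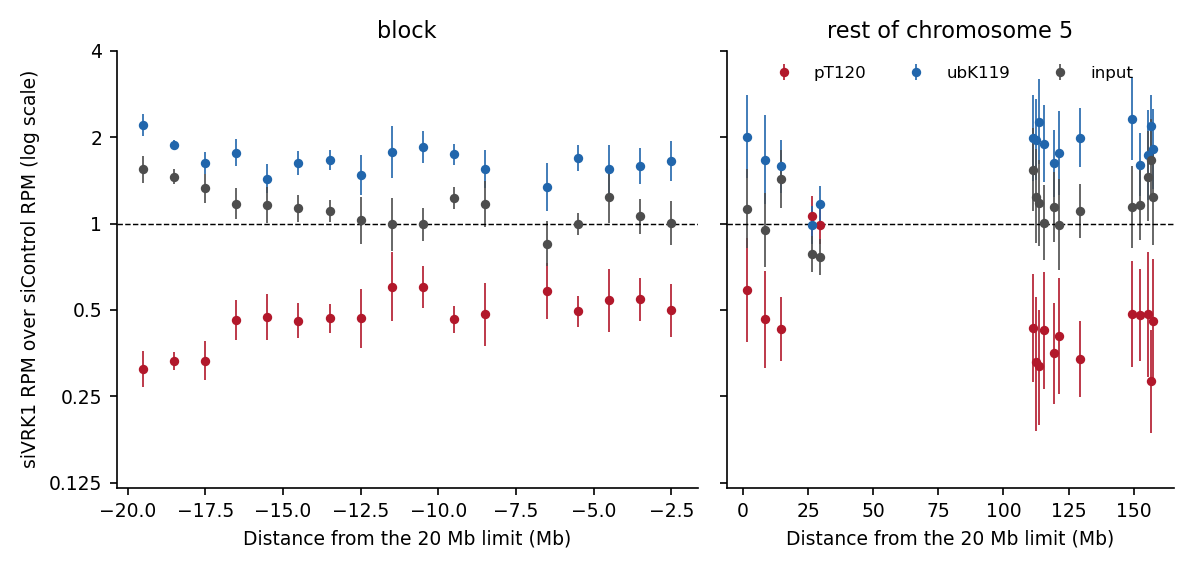
Ratio of siVRK1 RPM to siControl RPM (y axis, log scale) at regions called with the VRK1 antibody, by 1 Mb window, against distance from the 20 Mb limit (x axis, Mb), for pT120, ubK119 and input, with 95% intervals of counting error. In the block every pT120 point is below 1 and every ubK119 point above 1; on the rest of the chromosome the points near 1 for pT120, at 27 and 30 Mb, are windows beside the centromere.

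Single regions were counted where both libraries of a pair together held at least 20 reads. For pT120 only 100 of the 1120 block regions met this, and 72 of them (72.0%, 62.1 to 80.5) were lower in siVRK1 by a fold of 2 or more, against 31.3% over all chromosomes. On the rest of chromosome 5 it was 7 of 36 regions, or 7 of 15 without the windows from 45 to 50 Mb. For ubK119, 255 of 618 regions (41.3%, 37.3 to 45.3) were higher in siVRK1 by this measure, against 33.0% over all chromosomes and 42 of 101 on the rest of chromosome 5. For input, 60 of 382 regions (15.7%, 12.2 to 19.8) were higher in siVRK1, against 9.50% over all chromosomes. The ubK119 share of the block was thus close to that of the rest of its chromosome. Scaled to the rest of chromosome 5 in place of library totals, the counts were 33 of 100 for pT120 and 74 of 618 for ubK119. That scale includes the windows from 45 to 50 Mb, and no share over all chromosomes was computed with it.

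Regions called in a single antibody library were less frequent in the block than elsewhere. The 5 antibody lists merged into 5615 regions, of which 4888 came from 1 library, 545 from 2, 135 from 3, 38 from 4 and 9 from all 5. The share from 1 library was 87.1% (86.1 to 87.9), against 97.1% (96.5 to 97.6) on the rest of chromosome 5 and 91.3% over all chromosomes. This difference stood beside a higher peak density in the block, whose part was not tested. Outside input peaks 4905 regions remained, and 6 of them were called in at least 4 libraries. No share over all chromosomes is at hand for that count. Peaks of the block overlapped input peaks more often than peaks on the rest did. Outside both inputs lay 73.6% of the block's siVRK1 ubK119 peaks, 86.5% of those on the rest and 71.0% over all chromosomes. For siControl ubK119 these shares were 88.7%, 93.9% and 81.8%, and for VRK1 70.3%, 84.3% and 65.5%. The rest of chromosome 5 thus overlapped the inputs least. For siVRK1 pT120 the shares outside both inputs were 96.0% in the block, 97.6% on the rest and 89.5% over all chromosomes. For siControl pT120 they were 63.3%, 71.1% and 45.8%, and the intervals of block (57.4 to 68.9) and rest (63.4 to 78.0) overlapped. Without the windows from 45 to 50 Mb the rest was at 84.3% (77.0 to 90.03), apart from the block.

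VRK1 peaks of the block overlapped ubK119 peaks more often than pT120 peaks in the lists as deposited, which hold 2566 siControl ubK119 and 286 siControl pT120 peaks here. At a common height minimum the 48 VRK1 peaks left overlapped ubK119 in 35.4% (22.2 to 50.5) and pT120 in 29.2% (16.95 to 44.1), which did not differ beyond counting error. Of the 1123 VRK1 peaks, 263 (23.4%, 20.97 to 26.01) shared at least 1 bp with a siControl ubK119 peak, against 22.8% over all chromosomes and 7.63% (5.46 to 10.3) on the rest of chromosome 5. Outside input peaks it was 164 of 790 (20.8%, 17.98 to 23.8), against 6.82% over all chromosomes and 1.43% (0.526 to 3.08) on the rest. In the first 5 Mb the share outside input peaks was 35.1% (29.9 to 40.5), and from 5 to 18 Mb 10.6% (7.97 to 13.8). Seen from the ubK119 side, 259 of 2566 siControl ubK119 peaks (10.1%) met a VRK1 peak, against 14.3% over all chromosomes. Outside input peaks it was 6.63% (5.64 to 7.73), against 3.23% over all chromosomes. The number of ubK119 peaks per Mb moved with these shares, and its part in them was not tested.

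Overlap of VRK1 with pT120 was low. In the block 68 of 1123 VRK1 peaks (6.06%, 4.73 to 7.61) met a siControl pT120 peak, against 16.2% over all chromosomes, 8.43% (6.15 to 11.2) on the rest of chromosome 5 and 3.41% (1.962 to 5.48) on the rest without the windows from 45 to 50 Mb. The block was thus below the rest with those windows and above it without them, and the intervals overlapped in both cases. Outside input peaks 20 of 790 did (2.53%, 1.55 to 3.88), against 2.37% over all chromosomes, which is near the background. Seen from the pT120 side, 24.8% (19.9 to 30.3) of the 286 siControl pT120 peaks met a VRK1 peak, against 48.7% over all chromosomes. Outside input peaks it was 24 of 181 (13.3%, 8.68 to 19.1), against 9.7% over all chromosomes.

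The lists of the 2 siRNAs had few peaks in common. Of the 1066 siVRK1 ubK119 peaks of the block, 387 (36.3%) met a siControl ubK119 peak, against 27.1% over all chromosomes and 13.5% on the rest. Of the 2566 siControl ubK119 peaks, 438 (17.1%) met a siVRK1 ubK119 peak, against 13.1% over all chromosomes. The ubK119 lists thus had more in common here than on the rest of the chromosome, beside a higher peak density whose part was not tested. For pT120, 8 of the 1716 siVRK1 peaks (0.466%) met a siControl pT120 peak, against 5.77% over all chromosomes. From the side of the 286 siControl peaks it was 8 peaks (2.80%), against 39.3% over all chromosomes and 22.6% on the rest, or 8.21% (4.17 to 14.2) without the windows from 45 to 50 Mb. Outside input peaks it was 1.10% (0.134 to 3.93), against 5.18% over all chromosomes and 0.885% (0.0224 to 4.83) on the rest, so peaks shared with inputs made up most of the overlap elsewhere. The siVRK1 pT120 peaks met siControl ubK119 peaks more often than this, in 149 of 1716 cases (8.68%), against 10.9% over all chromosomes and 2.30% on the rest. Outside input peaks the block was above the whole: 8.07% (6.801 to 9.49), against 3.51% over all chromosomes. Of the siControl ubK119 peaks, 5.69% met a siVRK1 pT120 peak, against 16.7% over all chromosomes. Even the inputs shared little: 174 of 1208 siVRK1 input peaks (14.4%) met a siControl input peak, against 21.9% over all chromosomes, and 19.4% of the siControl input peaks met a siVRK1 input peak, against 27.3% over all chromosomes.

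Outside input peaks, long ubK119 peaks were frequent at the tip of this arm. Of 72 siVRK1 ubK119 peaks of at least 1000 bp outside input peaks, 21 lay in the block (29.2%, 19.05 to 41.1), 20 of them in the first 5 Mb. Of 45 such siControl ubK119 peaks, 15 lay in the block (33.3%, 20.0 to 49.0), all in the first 5 Mb. The rest of chromosome 5 had 0 in either list. With input peaks included, 63 of 393 siVRK1 ubK119 peaks of this length lay in the block (16.0%, 12.5 to 20.04) and 43 of 536 siControl ubK119 peaks (8.02%, 5.87 to 10.7), which for siControl was close to the block's share of all its peaks. The longest of these anywhere, at 15021 bp (siVRK1) and 13549 bp (siControl), lay elsewhere, and the longest in the block had 4644 and 2975 bp.

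The longest ubK119 region outside input peaks lay at chr5:1552816-1556761 and spanned 3945 bp. It held 539 ubK119 reads (17.98 RPM) in siVRK1 and 255 (6.31 RPM) in siControl cells, a ratio of 2.85 (2.45 to 3.32). The region was chosen and bounded as a siVRK1 ubK119 peak, which favours a ubK119 ratio above 1. It held 44 pT120 reads (1.22 RPM) in siVRK1 and 101 (4.88 RPM) in siControl cells, a ratio of 0.2501 (0.171 to 0.360). VRK1 had 157 reads (4.90 RPM), which was 2.396 times (1.75 to 3.32) the siControl input. The region was thus called for ubK119 under both siRNAs, for siControl pT120 and for VRK1, and not for siVRK1 pT120. Input had 115 reads in siVRK1 and 55 in siControl cells, a ratio of 1.69 (1.22 to 2.38), which is in the direction of the ubK119 difference.

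Of the 6 regions called in at least 4 antibody libraries outside input peaks, 5 lay between 1 and 2 Mb. The region at chr5:1229472-1232069 had 259 ubK119 reads in siVRK1 and 168 in siControl cells, with 35 and 80 pT120 reads, 117 VRK1 reads and 99 and 46 input reads. The region at chr5:1201455-1203861 had 230 and 123 ubK119 reads, 27 and 70 pT120 reads, 91 VRK1 reads and 75 and 19 input reads, in siVRK1 and siControl cells. The region at chr5:1052236-1053961 had 172 and 74 ubK119 reads, 7 and 41 pT120 reads, 71 VRK1 reads and 49 and 14 input reads in siVRK1 and siControl cells. In these 3 regions the ubK119 ratio was 2.08 (1.71 to 2.54), 2.52 (2.02 to 3.17) and 3.14 (2.38 to 4.18), and the pT120 ratio 0.251 (0.164 to 0.378), 0.221 (0.137 to 0.350) and 0.0980 (0.0371 to 0.221). These regions too were bounded as siVRK1 ubK119 peaks, which favours ubK119 ratios above 1. Their input ratios were 1.74, 3.19 and 2.83, so input DNA was also higher in siVRK1 at each.

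The only region called in all 5 antibody libraries outside input peaks was chr5:1266944-1267573. It had 42 ubK119 reads in siVRK1 and 55 in siControl cells, a ratio of 1.03 (0.673 to 1.57), and 11 and 20 pT120 reads, a ratio of 0.316 (0.137 to 0.691). Here ubK119 RPM did not differ beyond counting error. The last of the 6 regions, chr5:17526421-17526641, lay at the other end of the dense stretch and was weak, with 24 and 17 ubK119 reads, 14 and 9 pT120 reads, 14 VRK1 reads and 9 and 8 input reads in siVRK1 and siControl cells.

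The second longest siVRK1 ubK119 peak outside input peaks, at chr5:956127-958976, had 293 ubK119 reads in siVRK1 and 137 in siControl cells, a ratio of 2.89 (2.35 to 3.56). The longest siControl ubK119 peaks outside input peaks, chosen in the other library, had lower ratios. At chr5:1363479-1365098 the ubK119 libraries had 97 reads in siVRK1 and 115 in siControl cells, a ratio of 1.14 (0.859 to 1.504). At chr5:1251173-1252581 they had 91 and 107, a ratio of 1.15 (0.858 to 1.53). The peak at chr5:968360-969819 went the other way, with 41 reads in siVRK1 and 109 in siControl cells, a ratio of 0.507 (0.345 to 0.733), beside an input ratio of 1.09 (0.637 to 1.88). This peak and its neighbour at 956127 thus differed in opposite directions between the siRNAs. Regions of 1 list were chosen for being high in that list, so such ratios favour the library in which the region was called.

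The highest ubK119 peaks outside input peaks also clustered near the tip. In siVRK1 cells they were the longest region, at 52 reads, chr5:1390383-1391537, at 46, and chr5:1052236-1053961, at 42. In siControl cells they were chr5:1220471-1220979 at 36 reads, chr5:1186648-1187223 at 34 and chr5:1390714-1391229 at 33. The last of these lies inside the siVRK1 peak at 1390383.

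The highest pT120 peaks outside input peaks were low, and all but 1 lay beyond the first 5 Mb. In siVRK1 cells the peak at chr5:9457546-9457938 had 24 pT120 reads, against 1 in siControl pT120 and 4 in the siVRK1 input. The next ones, chr5:7142956-7143322 and chr5:9031935-9032339, each had 28 siVRK1 pT120 reads, against 3 and 11 in siControl pT120. In RPM, siVRK1 over siControl pT120 was 13.8 (2.25 to 567), 5.36 (1.66 to 27.5) and 1.46 (0.705 to 3.25) at these peaks. The last interval includes 1, and the choice of peaks in the siVRK1 pT120 list favours ratios above 1. These 3 regions were called in no other antibody library. Of the highest siControl pT120 peaks, chr5:1207119-1207447 had 5 siVRK1 pT120 and 20 siControl pT120 reads, with 4 in the siControl input, and was also called for siVRK1 ubK119 and VRK1. The regions chr5:10391761-10392084 and chr5:14242815-14243123 had 7 and 10 siVRK1 pT120 reads, against 18 siControl pT120 reads at each, and were called in no other antibody library. The siVRK1 input had 16 and 15 reads at these last regions and the siControl input 4 and 7. In RPM the pT120 ratios at the 3 siControl pT120 peaks were 0.144, 0.223 and 0.319, and their choice in that list favours ratios below 1.

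The highest VRK1 peaks outside input peaks were of the same size. At chr5:6431015-6431438 VRK1 had 32 reads (0.999 RPM), which was 1.79 times (0.942 to 3.56) the siControl input. At chr5:9907761-9908155 it had 29 reads, or 2.43 times (1.15 to 5.60) the input. The region chr5:1555316-1555682 lay within the longest ubK119 region and had 28 VRK1 reads, or 2.94 times (1.305 to 7.46) the input. At these depths the first interval includes 1, and an excess of VRK1 over input was not detectable there. All of these regions were chosen as high VRK1 peaks that overlap no input peak, which favours ratios above 1. The other ratios are therefore no test of an excess.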

How the data were processed

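The 7 libraries, each a single antibody or input DNA under 1 siRNA in HT1080 cells, were grouped by sample title. Per the labels' protocols, DNA went through 20 cycles of PCR and was sequenced for 36 cycles. CASAVA 1.8.2, Bowtie 0.12.8, Partek and hg19 are named in the submitters' processing notes; no source used here states how duplicates were treated or which peak-calling settings were used. The authors deposited a peak list for each library. Per the file headers, a list gives the raw read count of all 7 libraries in each region, not normalized. Peak height, a signal, is the highest number of extended reads that the authors found in the peak, per the file headers. Per the file headers the authors also divided this height by the library total, which gives RPM. A p-value from a Mann-Whitney test was deposited for each peak by the authors and was not used. The deposited percent of each region covered by peaks of other libraries, per the file headers, served to check the computed overlaps, and 0 differed. It is unstated whether positions start at 0 or 1.

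Library totals were taken as height over RPM. Peaks were assigned to 1 Mb windows by midpoint, 20 in the block and 161 on the rest of chromosome 5. Counts were summed over regions and scaled to library totals. Ratios have exact conditional binomial intervals, ratios of ratios log-normal intervals, and shares exact Clopper-Pearson intervals, computed in Python 3.11.15 with scipy 1.17.1, and the ratio calculation was tested on simulated data. Per-window ratios needed 10 regions. No p-value was computed, since there was 1 library per condition. Named peaks are, for each antibody library, the 3 highest outside input peaks, the regions called in at least 4 antibody libraries, the 3 longest ubK119 peaks of each siRNA outside input peaks, and the peaks nearest the 20 Mb limit. The block, lists and rules were chosen with earlier results of these data known. The stretches from 0 to 5, 5 to 18, 26 to 30 and 45 to 50 Mb and the length of 1000 bp were chosen after the values were seen. Alternatives tried concern the height minimum, input peaks, the limit of the block, the input limit of 100 reads, the region list, the scaling and the overlap rule.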

Additional observations from a re-analysis of the deposited data

How the results depend on the processing

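Of 143 alternative values, 71 stayed near the reported value, 58 moved and 14 turned direction; the cause was not tested in any case. No paired analysis was possible because each condition had 1 library and the labels carry no shared replicate numbers, and no replicate could be left out. Peak density, block over rest, turned to 0.805 for siVRK1 pT120 at a common height minimum, where VRK1 had 12.1. Without the windows from 45 to 50 Mb as well, a setting added after seeing the data, it was 4.68 for siVRK1 pT120, 63.2 for siControl ubK119, 37.4 for VRK1, 32.7 for siVRK1 input and 23.4 for siControl input. Against all other chromosomes it was 12.5 (siVRK1 ubK119), 6.76 (siControl pT120), 14.5 (siControl ubK119), 10.2 (VRK1) and 8.89 (siVRK1 input). It was 37.6 by covered bp and 15.6 with a limit at 30 Mb for siVRK1 ubK119, and 6.64 with a limit at 10 Mb for siControl input.

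Input reads per kb at VRK1 regions, block over rest, were 0.854 (siVRK1) and 0.732 (siControl). They turned to 1.12 and 1.01 with at most 100 reads in each input, to 1.17 and 1.17 without the windows from 45 to 50 Mb, and to 1.26 and 1.24 with both; the last setting was added after seeing the data. With a limit at 10 Mb they were 0.932 and 0.772, and in siVRK1 pT120 regions, also added later, 1.03 and 0.993, or 1.34 and 1.27 with at most 100 reads in each input.

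Antibody over input, block over rest, was 0.653 for siVRK1 pT120, 1.38 for siVRK1 ubK119 and 1.46 for VRK1 with any number of input reads. Outside input peaks siVRK1 pT120 turned to 1.10 and VRK1 was 1.18. With a limit at 10 Mb siVRK1 ubK119 was 1.52, siControl pT120 1.20, siControl ubK119 1.62 and VRK1 1.34. In regions called in either input the values were 0.947 (siVRK1 pT120), 1.37 (siVRK1 ubK119), 1.26 (siControl pT120) and 1.48 (siControl ubK119). With the input of the other siRNA siControl pT120 turned to 0.993, and the others were 0.844 (siVRK1 pT120), 1.44 (siVRK1 ubK119), 1.21 (siControl ubK119) and 1.08 (VRK1). Without the windows from 45 to 50 Mb, a setting added after seeing the data, siVRK1 pT120 was 0.997 and VRK1 1.21. In siVRK1 pT120 regions, also added later, siControl ubK119 was 1.18 and VRK1 1.13.

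The siVRK1 over siControl ratios of pT120, ubK119 and input were 0.456, 1.67 and 1.17 outside input peaks, 0.505, 1.64 and 1.13 in input regions, and 0.767, 1.07 and 1.11 when scaled to the rest of chromosome 5. With a limit at 10 Mb pT120 was 0.396 and input 1.27. In siVRK1 pT120 regions, added after seeing the data, ubK119 turned to 0.672 and input to 0.906. Overlap of VRK1 peaks with pT120 was 3.56% and with ubK119 16.6% when 50% of the peak had to be covered, 2.53% and 20.8% outside input peaks, and 29.2% and 35.4% at the common minimum. Regions past a fold of 2 numbered 375 (pT120), 427 (ubK119) and 217 (input) with at least 10 reads, and 33 (pT120) and 74 (ubK119) when scaled to the rest of chromosome 5. No share over all chromosomes was computed with these settings, nor the number of regions tested at 10 reads. These counts thus have no background to be read against. Depth limits pT120 most: 100 of 1120 block regions held enough reads for a fold.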
